A study of Rattus norvegicus with 12 samples.

Results

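Whole lungs of control rat pups were compared at postnatal day 10 against postnatal day 4, an interval within the alveolar stage of lung growth. The comparison took the arrays that the sample titles call Control at those days, 2 per day, which made 4 of the 12 arrays of the series. The animals were Sprague-Dawley rats, and their lungs were frozen fresh. RNA was pooled from 2 or 3 pups for each array, so a value is that of a pool. The series set 15 control pups against 14 pups growth restricted before birth (IUGR) by a low protein diet. The controls carry the stress label Control, and their own diet is not given in the sources used here. The 4 IUGR arrays of the same days entered the fit to steady the estimate of spread, and they gave the same change of age in other pools. The day 21 arrays had been normalised apart and were not used here.

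Rat pups are born with a lung of simple saccules. In the days after birth, thin ridges called secondary septa grow from the saccule walls and divide the airspaces into alveoli. Fibroblasts lay down elastin at the tips of these septa, capillaries grow with them, and the type 1 and type 2 epithelial cells line the new surface, for gas exchange and for surfactant respectively.

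The table held 26208 features, of which 9731 matched 1 gene symbol each and stood for 9621 genes. Values are log2 of the deposited intensity, and a difference is day 10 minus day 4 with its standard error after the ± sign (2 pools per day). That error is limma's and uses the spread pooled over all 8 arrays, IUGR pools included. It is thus not the scatter of the control pools alone. Adjusted p-values are limma's, adjusted across the whole table by Benjamini-Hochberg, and a gene is said to have risen or fallen only where its adjusted p was under 0.05. They reflect only how far pools of one day differ, and the labels count each pool as its own sample. Which pups or litters went into each pool is not given. Median intensity was 411.2 to 418.4 on the 8 arrays fitted, and each correlated with the mean of the other 7 at 0.986 to 0.996 over all features. The number of arrays limits the precision.

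From day 4 to day 10, 601 features rose (2.29%) and 522 fell (1.99%). The median size of the change was 0.65 among those that rose and 0.57 among those that fell. A change of more than 1 was reached by 81 of the features that rose and 43 of those that fell. Most features moved little, since 68.0% lay within 0.2 of no change, and the median difference of all features was -0.0124. Replicate pools of one day differed by a median of 0.0966 at day 4 and 0.0805 at day 10. The calls lean on all 4 control arrays. Without control day 4 replicate 1 the total of 1123 calls dropped to 7, without day 4 replicate 2 to 146, without day 10 replicate 1 to 30 and without day 10 replicate 2 to 14. Both day 10 arrays lay above both day 4 arrays for 27% of features and below both for 30.9%. All 601 features that rose and all 522 that fell were among these, so days set apart add no support to a call.

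Named genes were fewer among the features that rose than among those that fell. Of the 601 that rose, 120 had a symbol, against 229 of the 522 that fell. Over the 9621 genes, 1.23% rose and 2.36% fell, and 35% had both day 10 arrays below both day 4 arrays. These 3 shares are the ones to set beside the gene lists.

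The IUGR pools passed through the same days. Their arrays are others, but their calls use the spread pooled over all 8 arrays. There, 6.83% of features rose and 6.16% fell. Of the 601 features that rose in controls, 487 also rose in the IUGR pools (81.0%), and 1 fell. Of the 522 that fell in controls, 307 also fell (58.8%), and 2 rose. The difference had the same sign in both diets for 589 of the 601 and 472 of the 522. Fitted alone, the IUGR arrays gave 260 calls higher and 66 lower in all, fewer than these overlaps. The control arrays fitted alone gave 1557 higher and 1440 lower. Which diet had more calls thus depended on the arrays that gave the spread, and the larger IUGR shares do not show a larger change. The difference between the diets in this change was called for 0% of features by limma (1933 at an unadjusted p under 0.05), with a smallest adjusted p of 0.296. No change reported below is therefore shown to be particular to control lung.

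The labelled tissue was borne out by its markers. Surfactant protein C (Sftpc) stood at 15.40 and 15.45 on day 4 and at 15.40 and 15.31 on day 10. The club cell secretoglobin Scgb1a1 stood at 15.15 and 15.22 and then at 15.11 and 15.09. Both lie near the highest level in the table, 15.69, where differences may be compressed. Pecam1 of endothelium was at 12.33 to 12.52, Ager of type 1 cells at 12.24 to 12.51, and Cd68 of macrophages at 11.50 to 11.58. Among markers of other tissues, Alb of liver was at 7.93 to 8.17, Dntt of thymus at 7.84 to 8.70 and Krt13 of squamous epithelium at 7.58 to 7.91. Those lists also held brighter members, namely Tf at 10.92 to 11.59, Satb1 at 10.24 to 10.75 and Krt15 at 9.92 to 10.59.

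Genes of heart muscle stood higher on both day 4 arrays. Summed over the 15 measured heart genes, the log2 level was 15.35 and 15.06 at day 4 and 13.60 and 13.57 at day 10. Tnnt2, cardiac troponin T, stood at 14.17 and 13.99 on day 4 and at 11.71 and 11.60 on day 10. Myh6, the alpha myosin heavy chain of heart muscle, was at 11.98 and 11.19 and then at 9.40 and 9.19. Nppa, the atrial natriuretic peptide, was at 10.04 and 7.94 and then at 7.24 and 7.17. The 2 days did not overlap for any of these 3 genes, and 1 day 4 array had most of the Nppa. Tnnt2 fell by 2.42 ± 0.46 (adjusted p = 0.0335), which is 5.37-fold, and was the named gene with the largest change. It was the only heart gene that fell, while 11 of the 15 had both day 10 arrays below both day 4 arrays, and the list median was -1.001. With the control arrays fitted alone, 9 of the 15 fell, and with any 1 control array left out 0 passed in limma (3 or 4 at an unadjusted p under 0.05). In the IUGR pools Myh6 ran from 10.35 to 13.27. Which tissue gave these signals was not tested. Of 13 measured brown fat and adipocyte genes 0 passed in limma (1 at an unadjusted p under 0.05), and 6 had both day 10 arrays below both day 4 arrays. Their summed log2 level was 12.83 and 12.82 at day 4 and 12.36 and 12.60 at day 10. Fabp4, a fatty acid carrier that capillaries also make, was at 11.34 and 11.40 and then at 9.97 and 10.63. The defining brown fat gene Ucp1 overlapped between days, at 8.79 and 7.999 and then at 7.71 and 9.15.

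**Figure D1:**
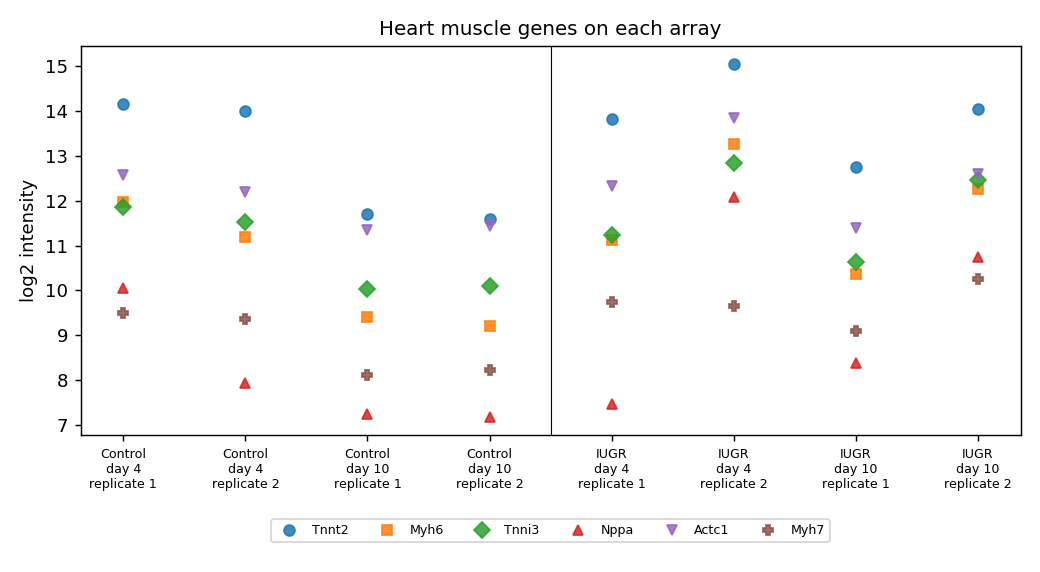
Log2 intensity of 6 heart muscle genes on each of the 8 arrays, 1 symbol per gene, control arrays left of the line and IUGR arrays right of it. Tnnt2 fell from 14.17 and 13.99 to 11.71 and 11.60 in controls, and replicate 2 of the IUGR pools stood high at both days.

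Elastin and some of its partners rose. Of 22 genes listed 10 were measured, 3 rose and 0 fell, with a median of 0.19. Tropoelastin (Eln), the soluble precursor of elastin, stood at 10.46 and 10.501 on day 4 and at 11.41 and 11.48 on day 10. Both day 10 pools were about equally high, and the days were far apart. The difference was 0.96 ± 0.08 (adjusted p = 0.00424), which is 1.95-fold. With IUGR, Eln rose by 0.54 (adjusted p = 0.00849).

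Proteins that assemble around elastin moved less. Ltbp2, a fibrillin-binding protein of elastic fibres, went from 10.03 in both day 4 pools to 10.52 in both day 10 pools (0.49 ± 0.08, adjusted p = 0.0257). Efemp1 (fibulin-3) went from 10.38 and 10.40 to 10.98 and 10.78 (adjusted p = 0.0344). Fibrillin-1 (Fbn1), the main microfibril protein, was at 14.38 and 14.41 and then at 14.76 in both, and the cross-linking enzyme Loxl1 was at 11.02 and 11.002 and then at 11.30 and 11.29. Neither passed (adjusted p = 0.0729 and 0.0750), although the days did not overlap for either. Fibulin-5 (Fbln5), needed for elastic fibre assembly in mice, was at 13.22 and 13.24 and then at 13.21 and 13.28, so its days overlapped. A rise within this list thus held for elastin and for 2 of its partners. With 1 control array left out, 0 or 1 of the 10 passed in limma (5 at an unadjusted p under 0.05 each time), and the list median lay between 0.18 and 0.20.

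**Figure D2:**
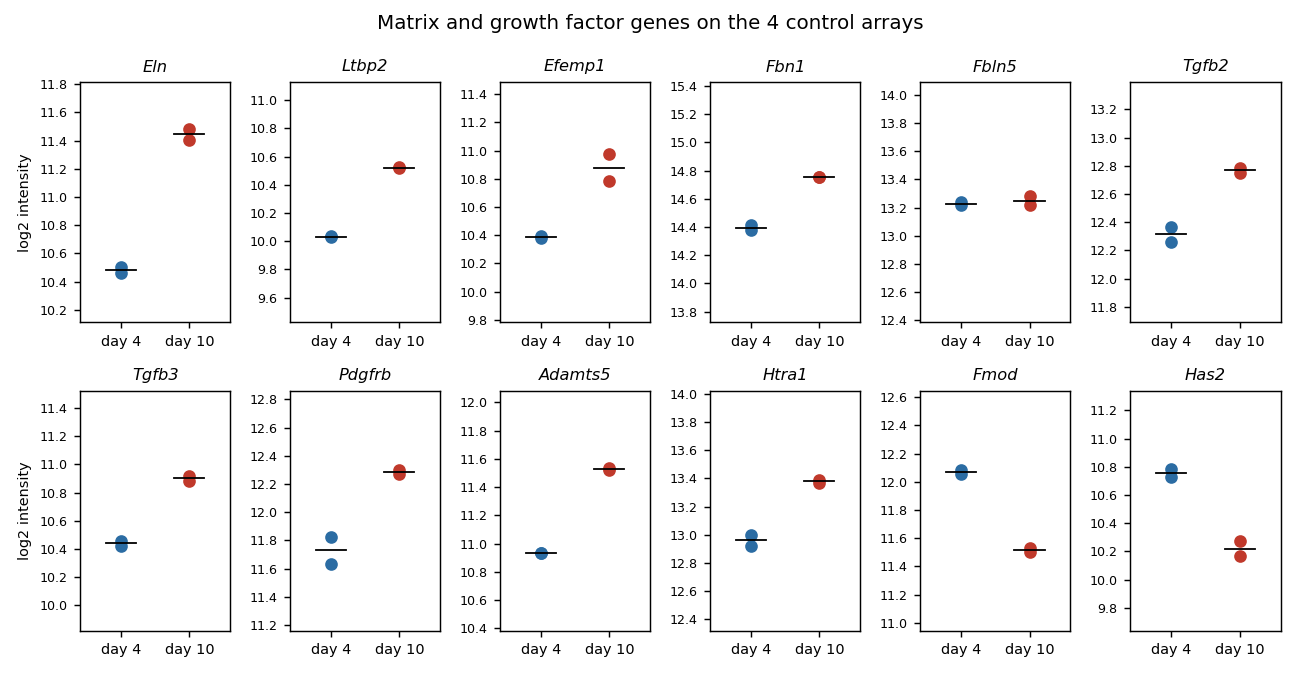
Log2 intensity of 12 matrix and growth factor genes in the 2 control pools of day 4 (blue) and the 2 of day 10 (red), with bars at the means and the same height of scale in each panel. Eln spans the largest step, 0.96, Fbln5 shows overlapping days, and Fmod and Has2 run the other way.

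The interstitial collagen and proteoglycan list held both directions, with 22 measured members, 0 that rose, 2 that fell and a median of 0.06. Fibromodulin (Fmod), a small proteoglycan that binds collagen fibrils, was at 12.08 and 12.06 on day 4 and at 11.50 and 11.53 on day 10. Hyaluronan synthase 2 (Has2) was at 10.78 and 10.72 and then at 10.17 and 10.27. Both day 10 pools lay well below the day 4 pools for each. Fmod fell by 0.55 ± 0.08 (adjusted p = 0.0182) and Has2 by 0.53 ± 0.10 (adjusted p = 0.0284). Collagen III (Col3a1) was at 13.99 and 13.88 and then at 14.24 and 14.16 (adjusted p = 0.316). Among matrix proteases, 1 of 22 measured rose. This was Adamts5, which cleaves large proteoglycans, at 10.93 and 10.94 and then 11.53 and 11.52 (0.59 ± 0.08, adjusted p = 0.0121). The gelatinase Mmp2 was at 12.72 and 12.93 and then at 13.24 and 13.23 (adjusted p = 0.0556).

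The TGF-beta ligands Tgfb2 and Tgfb3, which act on fibroblasts, rose. Tgfb2 stood at 12.37 and 12.26 on day 4 and at 12.79 and 12.75 on day 10. Tgfb3 stood at 10.42 and 10.46 and then at 10.88 and 10.92. Replicates lay close together and the days were apart for both. The differences were 0.45 ± 0.09 (adjusted p = 0.0329) and 0.46 ± 0.08 (adjusted p = 0.0277). Id2, a transcriptional inhibitor induced by BMP signals, fell by 0.41 ± 0.08 (adjusted p = 0.0310), from 11.25 and 11.24 to 10.87 and 10.81. Over the TGF-beta and BMP list of 37 measured genes, these were the only calls, 2 higher and 1 lower, and the median was -0.0238. With any 1 control array left out, 0 of the 37 passed in limma (5 to 8 at an unadjusted p under 0.05), and with a replicate block 0 passed (7 unadjusted). With IUGR, Tgfb2 rose by 0.55 and Tgfb3 by 0.52. Htra1, a secreted protease in the insulin-like growth factor list, rose from 12.92 and 13.00 to 13.37 and 13.39 (adjusted p = 0.0354), while the other 13 measured genes of that list did not pass.

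Among mesenchymal cells, the pericyte and mural cell receptor Pdgfrb stood at 11.63 and 11.83 on day 4 and at 12.27 and 12.30 on day 10. It rose by 0.56 ± 0.10 (adjusted p = 0.0277), the only call of 16 myofibroblast and smooth muscle genes, whose median was -0.0213. Smooth muscle actin (Acta2), the usual myofibroblast marker, was at 14.12 and 14.11 and then at 14.11 and 14.17. Its days overlapped.

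Lipofibroblasts are the lipid-storing fibroblasts of the young alveolar wall. Of their 14 measured genes 1 rose and 2 fell, and the median was -0.17. Apolipoprotein E (Apoe), a lipid carrier, went from 10.07 and 9.99 to 11.16 and 11.23, a rise of 1.16 ± 0.10 (adjusted p = 0.00483) or 2.23-fold. The surface glycoprotein Thy1 went from 10.35 and 10.16 to 9.501 and 9.56 (-0.72 ± 0.10, adjusted p = 0.0154). Dlk1, a membrane protein that holds back fat cell maturation, went from 9.48 and 9.47 to 8.20 and 8.13 (-1.31 ± 0.08, adjusted p = 0.00212). The lipid droplet protein Plin2 was at 14.42 and 14.28 and then at 14.02 in both (adjusted p = 0.0900). The 3 called genes thus ran in different directions, and Apoe and Dlk1 are also made by other cells.

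Dlk1 and Mest are imprinted genes of fetal growth. Mest stood at 13.49 and 13.37 on day 4 and at 12.67 and 12.53 on day 10, and fell by 0.83 ± 0.11 (adjusted p = 0.0126). These were the calls among 17 measured imprinted genes, with a median of -0.0531. The fetal growth factor Igf2 was at 9.86 and 9.77 and then at 8.48 and 8.50, a difference of -1.33 ± 0.41 that did not pass (adjusted p = 0.110), and its IUGR pools ran from 8.60 to 10.73. Both Dlk1 (-0.87) and Mest (-0.62) also fell in the IUGR pools.

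Few genes of vessels and epithelium passed. Among 30 endothelial and angiogenic genes 0 rose and 1 fell, with a median of 0.0445. That gene was endothelin-1 (Edn1), a peptide that constricts vessels, at 10.95 and 11.10 on day 4 and at 10.15 and 10.08 on day 10 (-0.91 ± 0.12, adjusted p = 0.0120). Car4, a carbonic anhydrase of lung capillaries, was at 12.14 and 12.18 and then at 12.46 and 12.49 (adjusted p = 0.0706), and the growth factor Vegfa was at 12.29 in both and then at 12.60 and 12.59 (adjusted p = 0.130). Both were higher in each day 10 pool without passing. Of 15 type 1 cell genes 0 passed in limma (3 at an unadjusted p under 0.05), not even the water channel Aqp5 (8.97 and 9.07, then 9.37 and 9.33, adjusted p = 0.0655).

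Type 2 cell genes leaned the other way, with 0 of 14 higher, 1 lower and a median of -0.20. Napsin A (Napsa), which trims the surfactant protein B precursor, was at 12.42 and 12.45 on day 4 and at 11.96 and 11.94 on day 10. It fell by 0.49 ± 0.08 (adjusted p = 0.0244). Surfactant protein B (Sftpb) was at 13.21 and 13.13 and then at 12.72 and 12.77 (adjusted p = 0.0516), just outside the threshold, and the lysosomal protein Lamp3 was at 13.94 in both and then at 13.49 and 13.61 (adjusted p = 0.0528). In the IUGR pools 7 of the 14 fell, Sftpb by 0.81. In whole lung RNA, fewer cells of a type and less RNA per cell cannot be told apart.

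Genes of ion and water transport, which include channels, pump subunits and the carbonic anhydrase Car4, fell in 2 of 23 measured. None was higher, and the median was -0.16. The chloride channel Cftr was at 11.43 and 11.47 on day 4 and at 10.65 and 10.45 on day 10 (-0.90 ± 0.12, adjusted p = 0.0124). The sodium channel subunit Scnn1a was at 11.29 and 11.40 and then at 10.98 and 10.85 (-0.43 ± 0.09, adjusted p = 0.0476). Haptoglobin (Hp), in the airway list, fell from 11.16 and 11.18 to 10.35 and 10.41 (adjusted p = 0.0148), the 1 call of 18 there. The airway secretoglobin Scgb3a1 varied most between replicates, at 11.82 and 12.35 and then at 8.56 and 11.66 (adjusted p = 0.328).

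**Figure D3:**
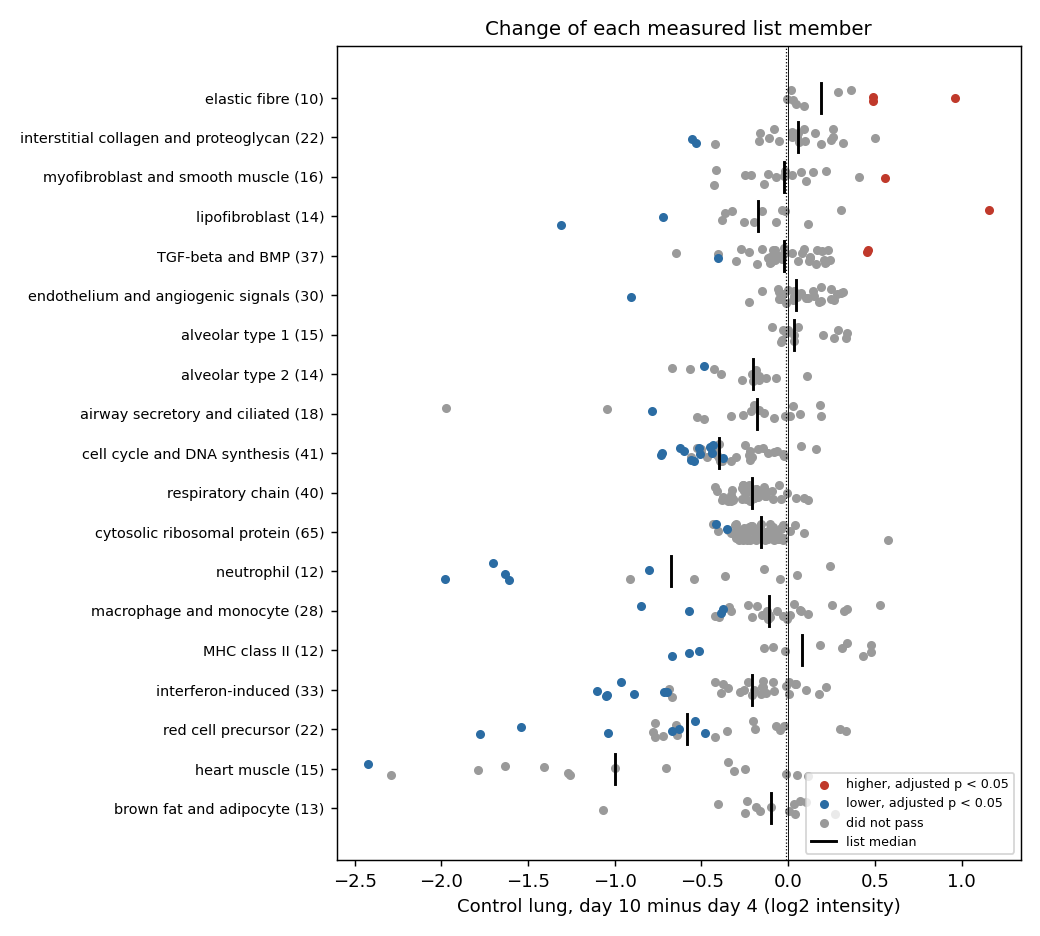
Day 10 minus day 4 in control lung (log2 intensity) for every measured member of 19 gene lists, with list sizes in brackets, list medians as black bars and the median of all features as a dotted line. The calls in the cell cycle, neutrophil, red cell and interferon lists all lie on the lower side, while the elastic fibre calls lie on the higher side.

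A part of the proliferation genes fell. Of 105 cell cycle and DNA synthesis genes listed, 41 were measured, 0 rose, 12 fell (29.3%) and 29 did not pass. The list median was -0.40. Both day 10 pools lay below both day 4 pools for 34 of the 41. Cyclins B1 and B2 with their kinase Cdk1 drive entry into mitosis. Ccnb1 was at 11.53 and 11.44 on day 4 and at 10.79 and 10.72 on day 10, a fall of 0.73 ± 0.09 (adjusted p = 0.0120) or 1.66-fold. Ccnb2 was at 9.35 and 9.45 and then at 8.96 and 8.97, and Cdk1 at 11.92 and 11.89 and then at 11.24 and 11.48 (adjusted p = 0.0278 and 0.0366). The days were apart for all 3.

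Enzymes of DNA precursors fell with them. Thymidylate synthase (Tyms), which makes the thymidine nucleotide, went from 11.50 and 11.42 to 10.98 and 10.93 (adjusted p = 0.0248). The deoxyuridine phosphatase Dut went from 9.64 and 9.62 to 8.92 and 9.14 (adjusted p = 0.0244), and its second feature fell as well, by 0.56. Also called were Hmmr and Kif15 of the mitotic spindle and Spc25 of the kinetochore. So were the DNA polymerase subunit Pold1, the DNA primase subunit Prim2 and the nuclear lamin Lmnb1. These genes fell by 0.38 to 0.62.

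Of the 41 genes, Ccnd1 and Cdc25b alone had a difference above 0, and neither passed. The clamp protein Pcna was at 13.61 and 13.45 and then at 13.17 and 13.06 (adjusted p = 0.0704). In the IUGR pools 6 of the 41 fell and the median was -0.32. Mki67 and Top2a were not measured. The list of cyclin-dependent kinase inhibitors, which also holds the antiproliferative genes Btg1 and Btg2, did not move the other way. It had 0 calls of 11 in limma (3 at an unadjusted p under 0.05) and a median of -0.21. Btg1 and Btg2 were among those 3, so these values are not those of kinase inhibitors alone. With any 1 of the 4 control arrays left out, 0 of the 41 genes passed in limma (19 to 29 at an unadjusted p under 0.05), while the median stayed between -0.47 and -0.33.

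**Figure D4:**
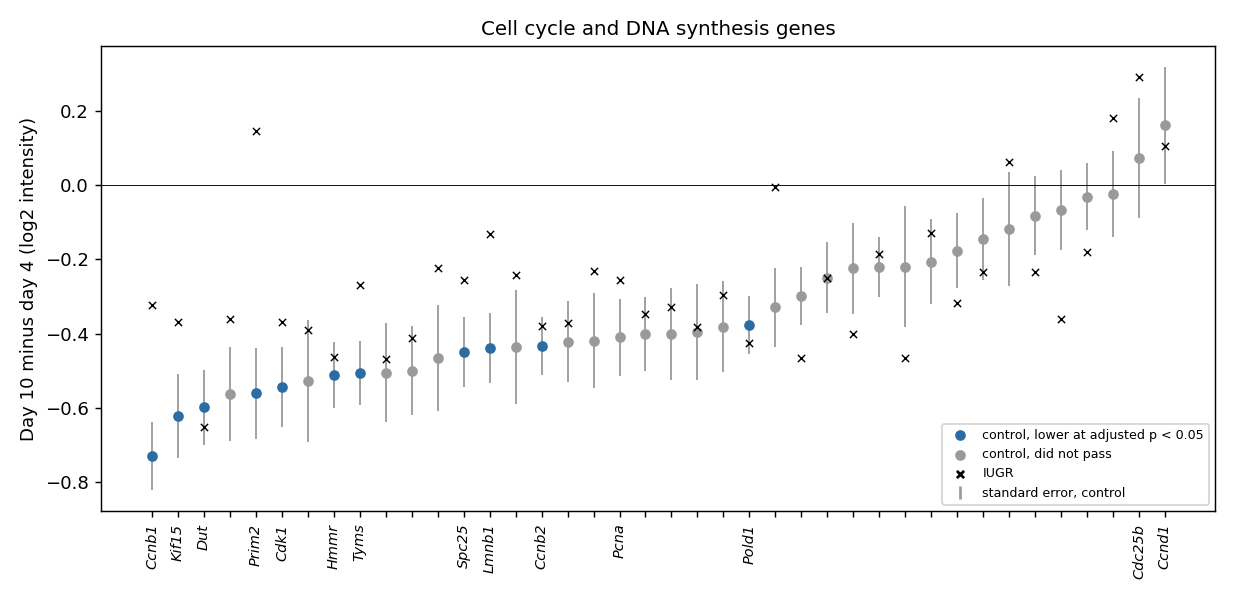
Day 10 minus day 4 (log2 intensity) for 40 of the measured cell cycle genes, as dots with standard errors in control pools and as crosses in IUGR pools. All but 2 dots lie below 0, and Ccnb1 fell by 0.73. Names stand only at genes the text describes.

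Promoters of called members show motifs known from such genes, printed from RefSeq (build GRCr8) as 250 bases before to 50 after the start site. CCAAT boxes, read by the factor NF-Y, and TTTGAA boxes, the usual CHR element bound by the DREAM and MuvB complexes, are known from mitotic genes, and TTTGGCGC, TTTCCCGC and TTTCGCGC are forms of the E2F site. Capitals mark these motifs on either strand, so a CCAAT box on the other strand reads ATTGG. Shown are the 3 called members with the smallest p among those whose promoter held a motif: Ccnb1 at chr2:33655176-33655475 (minus strand), Hmmr at chr10:25665166-25665465 (minus strand) and Tyms at chr9:120776034-120776333 (minus strand).
Ccnb1: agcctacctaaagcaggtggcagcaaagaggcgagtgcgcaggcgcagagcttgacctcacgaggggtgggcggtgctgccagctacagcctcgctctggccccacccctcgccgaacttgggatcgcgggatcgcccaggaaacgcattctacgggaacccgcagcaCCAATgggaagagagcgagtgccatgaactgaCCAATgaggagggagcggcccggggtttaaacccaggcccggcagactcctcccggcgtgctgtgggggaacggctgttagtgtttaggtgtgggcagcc
Hmmr: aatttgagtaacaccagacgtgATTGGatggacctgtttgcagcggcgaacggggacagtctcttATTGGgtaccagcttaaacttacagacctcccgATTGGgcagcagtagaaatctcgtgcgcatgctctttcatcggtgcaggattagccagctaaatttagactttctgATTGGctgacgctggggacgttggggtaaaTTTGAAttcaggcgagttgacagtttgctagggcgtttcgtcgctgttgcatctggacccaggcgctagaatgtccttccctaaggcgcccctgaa
Tyms: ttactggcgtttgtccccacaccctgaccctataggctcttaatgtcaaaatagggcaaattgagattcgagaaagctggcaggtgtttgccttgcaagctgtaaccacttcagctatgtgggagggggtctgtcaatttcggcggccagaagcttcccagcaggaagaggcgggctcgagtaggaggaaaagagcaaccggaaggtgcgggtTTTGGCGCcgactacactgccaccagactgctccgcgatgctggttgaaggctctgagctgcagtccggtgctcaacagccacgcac

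In Ccnb1 the CCAAT boxes begin 82 and 50 bases before the start site, and in Hmmr a TTTGAA box begins 46 bases before it. In Tyms a TTTGGCGC begins 37 bases before it. A promoter was found for 11 of the 12 called genes. CCAAT was present in 7 of the 11 (63.6%) against 37.5% of all 33469 promoters, and in 22 of the 33 list members with a promoter (66.7%). TTTGAA was present in 6 of the 11 (54.5%) against 18.3% of all promoters, and in 14 of the 33 (42.4%). Any of the 3 E2F forms was present in 2 of the 11 (18.2%) against 1.72%, and in 7 of the 33 (21.2%). A pair of GAAA motifs with 2 bases between them was present in 2 of the 11 against 3.92% of all promoters, and in 2 of the 33 (6.06%). TCACNCCAC, a form of the cholesterol response element, was present in 0 of the 11 against 1.12%. Prim2 and Dut held none of the 7 motifs in this window. A match describes these letters and shows no binding.

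Neutrophil products had the lowest list median after heart muscle. Of 20 neutrophil genes listed 12 were measured, 0 rose and 5 fell, and the median was -0.67. The alpha-defensin Np4, a microbicidal peptide of granules, was at 9.67 and 9.58 on day 4 and at 7.67 and 7.61 on day 10. S100a8 was at 12.67 and 12.70 and then at 11.13 and 10.83, and its partner S100a9, which forms calprotectin with it, at 12.74 and 12.72 and then at 11.23 and 11.02. Every day 10 value lay more than 1 below every day 4 value for these 3 genes. Np4 fell by 1.98 ± 0.10 (adjusted p = 0.00116) or 3.95-fold, S100a8 fell by 1.71 ± 0.13 (adjusted p = 0.00387) or 3.26-fold, and S100a9 fell by 1.61 ± 0.17 (adjusted p = 0.00908) or 3.05-fold.

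Further neutrophil and related genes fell. The neutrophil collagenase Mmp8 went from 10.92 and 10.66 to 9.41 and 8.89, and the peptidoglycan-binding protein Pglyrp1 fell by 0.81 (adjusted p = 0.0247). The defensins RatNP-3b and Defa5 fell by 1.82 and 1.30, and the stefin A family proteinase inhibitors Csta3 and Stfa2l1 fell by 1.61 and 1.43. Defensins, stefins and embryonic globins are families of close copies, so a probe may read more than 1 member. Np4 fell by 1.93 and S100a9 by 1.47 in the IUGR pools, and Mmp8 differed there by -0.54 (adjusted p = 0.0958). With 1 control array left out, 1 to 4 neutrophil genes passed, and the median lay between -0.75 and -0.58.

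Some red cell precursor genes fell too. Of 22 measured, 0 rose, 7 fell and 15 did not pass, and the median was -0.59. The red cell membrane glycoprotein Rhag was at 9.64 and 9.31 on day 4 and at 7.95 and 7.91 on day 10 (-1.54 ± 0.22, adjusted p = 0.0161). The haem synthesis enzyme Cpox fell by 0.63, from 11.91 and 11.78 to 11.26 and 11.17 (adjusted p = 0.0203). The days were wide apart for Rhag, which lay near the dim end of the scale at day 10.

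Globins were measured at both ends of the scale. The embryonic-type globin Hbe1 went from 8.87 and 8.86 to 7.92 and 7.73 (-1.04 ± 0.18, adjusted p = 0.0257), and Hbg1 from 7.74 and 7.71 to 7.21 and 7.29. Adult beta globin (Hbb) was at 15.37 and 15.40 and then at 15.33 and 15.30, near the top of the scale, and a difference between globins was not tested. Alas2, the first enzyme of erythroid haem synthesis, was at 12.32 and 12.26 and then at 12.02 and 12.18 (adjusted p = 0.421). With only 2 control arrays at day 10, any genes that fell are lower on the same 2 arrays, which ties no lists together. The share of blood in each lung is not given and was not tested. With any 1 control array left out, 0 of the 22 red cell precursor genes passed in limma (12 or 13 at an unadjusted p under 0.05), while the median stayed between -0.56 and -0.54.

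**Figure D5:**
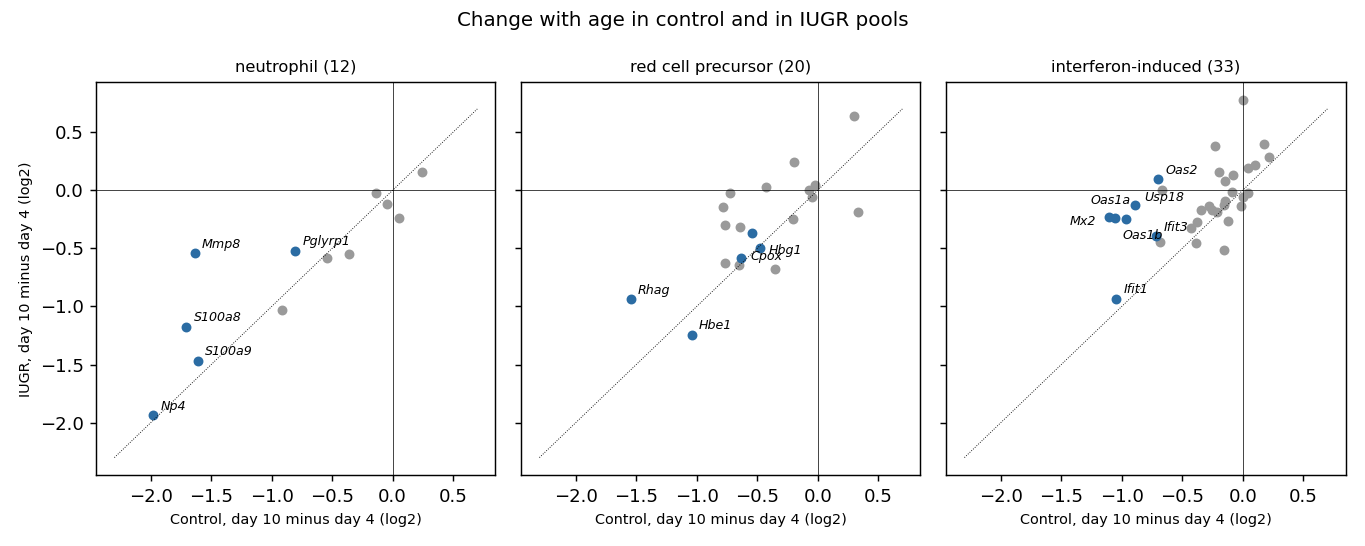
Day 10 minus day 4 (log2 intensity) in IUGR pools against the same in control pools for the neutrophil, red cell precursor and interferon-induced lists, 1 dot per gene shown, blue where the control change passed, with a dotted line of equal change. Np4 lies near the line at -1.98 and -1.93, whereas Mx2 lies at -1.11 and -0.23.

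Some interferon-induced genes fell. Of 33 measured, 0 rose, 7 fell and 26 did not pass, and the median was -0.21. Oas1a, an enzyme that makes the messenger activating antiviral RNase L, was at 9.09 and 8.84 on day 4 and at 7.86 and 7.97 on day 10. The antiviral GTPase Mx2 was at 10.44 and 10.01 and then at 8.98 and 9.26. Usp18, which strips ISG15 from proteins, was at 8.67 and 8.35 and then at 7.63 and 7.61. The day 4 pools were the higher and also the more unlike each other. Oas1a fell by 1.05 ± 0.11 (adjusted p = 0.00908), Mx2 fell by 1.11 ± 0.16 (adjusted p = 0.0176) and Usp18 fell by 0.89 ± 0.11 (adjusted p = 0.0120). Oas2, Oas1b, Ifit1 and Ifit3 fell by 0.70 to 1.04.

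The IUGR pools gave smaller differences for most of these genes. Mx2 differed by -0.23, Oas1a by -0.24, Usp18 by -0.13 and Oas2 by 0.10, none past the threshold, while Ifit1 fell by 0.93 (adjusted p = 0.0113). The test of the difference between diets did not pass for any of them, with adjusted p = 0.361 to 0.947. With control day 4 replicate 1, control day 10 replicate 1 or control day 10 replicate 2 left out, 0 of the 33 passed in limma (11 to 14 at an unadjusted p under 0.05), and with control day 4 replicate 2 left out 6 passed.

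The interferon response element contains a pair of GAAA motifs with 2 bases between them. This pattern was present in 15 of the 25 list members with a promoter in the RefSeq table (60%), against 3.92% of all promoters, and in all 3 of the called genes that have one. Oas1a, at chr12:41330216-41330515 (plus strand), is shown because it had the smallest p of them, with this pattern and CCAAT in capitals.
Oas1a: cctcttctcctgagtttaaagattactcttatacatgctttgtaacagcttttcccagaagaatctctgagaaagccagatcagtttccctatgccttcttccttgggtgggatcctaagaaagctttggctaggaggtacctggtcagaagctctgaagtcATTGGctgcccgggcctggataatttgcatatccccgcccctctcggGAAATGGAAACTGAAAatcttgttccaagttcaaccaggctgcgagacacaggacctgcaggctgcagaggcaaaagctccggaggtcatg
In Oas1a matches begin 41 and 35 bases before the start site and overlap each other. Promoters outside the cell cycle list were looked at after the values were known.

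Among macrophage and antigen-presentation genes all calls were lower, and some genes stood higher at day 10 without passing. Of 28 macrophage and monocyte genes 0 rose and 4 fell, with a median of -0.11. The lysosomal protease Ctss was at 11.71 and 11.62 on day 4 and at 11.03 and 11.14 on day 10 (-0.57 ± 0.10, adjusted p = 0.0254), and the Fc receptor Fcgr3a at 9.91 and 9.87 and then at 9.08 and 9.02 (-0.85 ± 0.15, adjusted p = 0.0271). Lgals3 and Cd14 fell by 0.39 and 0.38. The growth factor receptor Csf1r was at 9.58 and 9.60 and then at 9.86 and 9.82 (adjusted p = 0.104), with Cd68 nearly level.

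In the MHC class II list of 12 measured genes, the peptide loaders RT1-DMa and RT1-DMb fell by 0.67 and 0.52 (adjusted p = 0.0411 and 0.0248), as did Ctss, which is in this list too. The presenting chains RT1-Da and RT1-Bb were at 12.64 and 12.79 and at 9.14 and 9.49 on day 4, and at 13.07 and 13.04 and at 9.85 and 9.74 on day 10. Both were higher in each day 10 pool, without passing (adjusted p = 0.0752 and 0.0728). The list median was 0.08.

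Complement genes that fell were C3, the central component, C2 and Cfb, which join the C3 convertases, and the convertase inhibitor Cd55. C3 went from 11.87 and 11.88 to 10.94 and 11.22 (-0.79 ± 0.13, adjusted p = 0.0216). Cd55 went from 12.53 and 12.44 to 11.87 and 11.92 (-0.59 ± 0.08, adjusted p = 0.0148). These 4 were the calls of 17 measured genes, with 0 higher and a median of -0.10. The terminal component C6 ran the other way, at 11.15 and 11.78 and then at 12.27 and 12.65 (adjusted p = 0.0607). Of 30 inflammatory genes, Ptgs2, Il18 and Ccl6 fell by 0.61, 0.44 and 0.42, and the list median was -0.0057.

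Antioxidant enzymes fell in 3 of 27 measured genes, with 0 higher and a median of -0.21. Gpx1, which reduces hydrogen peroxide with glutathione, was at 13.10 and 13.14 on day 4 and at 12.54 and 12.46 on day 10 (-0.62 ± 0.10, adjusted p = 0.0216). The lipid peroxide reductase Gpx4 fell by 0.45 and the peroxiredoxin Prdx2, abundant in red cells, by 0.43 (adjusted p = 0.0407 and 0.0342). Of 19 glucocorticoid-responsive genes 0 rose and 2 fell. These were the receptor co-chaperone Fkbp5, at 9.79 and 9.61 and then at 8.81 and 8.95 (-0.82 ± 0.13, adjusted p = 0.0207), and Sult1a1 (-0.38, adjusted p = 0.0474). Of the clock genes, the repressor Nr1d1 rose from 9.03 and 8.70 to 9.58 and 9.81 (adjusted p = 0.0240), and Bhlhe41 fell by 0.65 (adjusted p = 0.0252). The hour at which lungs were taken is not given.

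Most genes of the respiratory chain and of cytosolic ribosomes had differences below 0, and few passed. None of 40 respiratory chain genes passed in limma (13 at an unadjusted p under 0.05), 35 had both day 10 pools below both day 4 pools, and the median was -0.21. Of 65 cytosolic ribosomal protein genes 0 rose and 2 fell, Rps2 and Rps27 by 0.41 and 0.35, 54 had both day 10 pools lower, and the median was -0.16. These shifts are small. Most heart genes above, from a tissue rich in mitochondria, were also lower at day 10, but every list here uses the same 4 control arrays. Their part in the respiratory chain values was not tested. In the IUGR pools 27 ribosomal protein genes fell.

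Named genes outside these lists completed the largest changes. Ceacam1, an adhesion molecule of epithelium and endothelium, rose on all 3 of its features, by 0.97, 1.04 and 1.08. The first of these stood at 11.79 and 11.99 on day 4 and at 12.88 and 12.84 on day 10 (adjusted p = 0.0141). Clic2, an intracellular chloride channel protein, went from 12.22 and 11.95 to 13.50 and 13.13 (1.23 ± 0.24, adjusted p = 0.0374). The cytochrome P450 Cyp2b12, the secreted protein Nell1 and the deubiquitinase Usp19 rose by 1.19, 0.93 and 1.08. The mast cell tryptase Tpsab1 went from 7.70 and 7.76 to 8.51 and 8.62 (0.83 ± 0.08, adjusted p = 0.00754), the 1 call of 12 mast cell genes. On the other side, the carboxylesterase Ces1e fell by 1.38 (adjusted p = 0.0147) and the tubulin Tuba4a by 1.15 (adjusted p = 0.00911).

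Some of the largest rises came from dim features. Or14j3d, Or14j3b, Or6c69 and Or4p20, odorant receptors of the nose, rose by 1.26, 1.20, 0.92 and 0.86 at mean levels of 7.71 to 8.14. Over all 1122 odorant receptor features, a list added after the values were seen, 15 rose (1.34%) and 0 fell, against 2.29% that rose over all features and 1.23% over named genes, with a median of 0.0179. The muscle growth inhibitor Mstn rose by 1.08 ± 0.23 (adjusted p = 0.0437) from 7.09 and 7.16 to 8.62 and 7.80, and in the IUGR pools it differed by -0.37.

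Several pathways of lung growth gave no call. In limma none of the 14 FGF, 17 Wnt, 10 Notch, 5 hedgehog and 18 retinoid genes measured passed, nor did any of 26 cholesterol genes. At an unadjusted p under 0.05 these lists held 3, 4, 1, 1, 3 and 9 genes in that order. Fgf18 (0.41, adjusted p = 0.0820) and Fgf10 (-0.37, adjusted p = 0.0854), counted with the fibroblast lists and not with the FGF list, did not pass either. The smallest adjusted p in the first 3 of these lists were 0.115 for the growth factor Fgf2 (0.54), 0.0846 for the Wnt receptor Fzd2 (-0.33) and 0.138 for the Notch ligand Dll1 (0.32). A p that misses the threshold with 2 pools a day does not show that these genes stayed level.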

How the data were processed

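Total RNA of whole rat lung was hybridised to one-colour NimbleGen arrays with Cy3, per the labels' protocols. The deposited values are linear intensity after the authors' processing. RMA is the only tool named, per the submitters' processing notes, with no version; its steps and the handling of saturated spots are not given in the sources used here. The log2 of each deposited intensity was taken, with no further normalisation. All 8 arrays of both days entered 1 fit with 4 groups with limma 3.58.1 in R 4.3.3 (lmFit and eBayes, 4 residual and 3.787 prior degrees of freedom). P-values were adjusted over all 26208 features. Tables and figures were made with Python 3.11.15, pandas 2.3.3 and matplotlib 3.10.9. The procedure was tested on simulated data.

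RefSeq accessions were matched to symbols through a RefSeq gene table. Of a gene's features, the one with the highest mean stands for it in a list. The members and the gene lists were chosen with earlier results of these data known. Named genes are the 15 highest and 15 lowest calls with a symbol whose days did not overlap, up to 6 members with the smallest p per list, and a panel of 89 lung genes. Further called members were named after their values were seen. Some genes this rule covers are not reported here, though counts and medians of lists include them. The alternatives were median centring, quantile normalisation, an intensity trend, leaving out the dimmest 30% of features, array weights, NM features only, a replicate block, the control arrays alone and each array left out.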

Additional observations from a re-analysis of the deposited data

Results flagged for a closer look

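The following genes differed in one direction between days in the control pools and in the opposite direction in the IUGR pools, with each day 10 pool beyond both day 4 pools. Values are day 10 minus day 4 on the log2 scale, controls first. The difference itself, tested by limma over all features, did not pass for any of the 18, with adjusted p from 0.300 to 0.748. These genes were singled out from all named genes by this pattern.

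Among immune genes, the class II chains RT1-Bb and RT1-Da differed by 0.48 and 0.34 in controls and by -0.43 and -0.27 in IUGR pools, and the leukocyte transcript Lst1 by 0.34 and -0.53. Vcam1, a vessel wall adhesion molecule, differed by 0.22 and -0.13, and Cd1d1, which presents lipids, by -0.16 and 0.24.

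Among lung structure genes, Ager of type 1 cells differed by 0.26 and -0.24. The VEGF receptor Kdr differed by 0.0716 and -0.15, the protease inhibitor Timp3 by 0.21 and -0.11, and Igfbp4, which binds insulin-like growth factors, by 0.20 and -0.18. The guidance genes Ntn1 and Unc5b differed by -0.22 and -0.17 in controls and by 0.22 and 0.15 in IUGR pools. Fgf12 differed by -0.18 and 0.18.

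The retinol binding protein Rbp2 differed by 0.26 and -0.13. The clock genes Cry2 and Per1 differed by 0.23 and -0.21 in controls and by -0.12 and 0.38 in IUGR pools. Ivl of squamous epithelium differed by -0.23 and 0.13, Alas2 of red cell precursors by -0.19 and 0.24, and Mstn by 1.08 and -0.37, the widest gap of the 18.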

How the results depend on the processing

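With 1123 features called for control lung, the count came to 3551 with array weights and 2997 with the control arrays alone. It came to 359 with NM features only, where 10097 features were tested. Leaving out both IUGR replicate 2 arrays (chosen after seeing the data) left 1 array per IUGR group. For control lung that is the same fit as the control arrays alone. Leaving out 1 array gave 7 to 2264 calls. Median centring, quantile normalisation, an intensity trend and leaving out the dimmest 30% of features gave 1051 to 1356. With a replicate block it came to 823, of which 649 were among the 1123. The replicate numbers were not taken as pairing pools, since the labels name no shared source and the replicate differences of the 2 control days correlated at 0.04 over features; under the block, 4 cell cycle, 6 red cell precursor, 5 interferon, 5 neutrophil, 1 elastic fibre and 0 TGF-beta and BMP genes passed in limma. For the IUGR pools, 3405 calls became 326 with those arrays alone, 1152 with NM features only, 1420 with array weights, and 504 to 4259 with 1 array left out. For the difference between diets, 0 calls in limma (1933 at an unadjusted p under 0.05) became 11 without both IUGR replicate 2 arrays and 0 to 152 with 1 array left out. No control call changed sign under any alternative, which adds no support. The days did not overlap for any of the 1123 calls, so leaving out 1 control array could not reverse a sign. Leaving out IUGR arrays does not alter the control difference. Of 97 named features that were called, 68 were still called under the block, 91 to 94 with median centring, quantile normalisation or an intensity trend, and 2 to 18 with 1 control array left out. The causes were not tested. With 2 pools a day, the spread is estimated from few arrays, and dim or near-maximal features may understate a change.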
